A study of Caenorhabditis elegans with 2 samples.

Results

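The genes described here are 10 that take part in X-chromosome counting and dosage compensation in Caenorhabditis elegans: xol-1, sdc-1, sdc-2, sdc-3, dpy-21, dpy-26, dpy-27, dpy-28, dpy-30 and mix-1. They were taken as a named list, out of 19973 protein-coding genes, and the peaks of a chromatin immunoprecipitation sequencing (ChIP-seq) experiment on the homeodomain protein CEH-63 were looked up around each of them. Of the 10 genes, 3 lie on X (xol-1, sdc-1 and sdc-2) and 7 on autosomes, so X and autosomal genes are described against 2731 and 17242 protein-coding genes of the same class.

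The series holds 1 group of 2 biological replicates of strain OP742, which carries the transgene wgIs742. This holds the fusion C02F12.10::TY1::EGFP::3xFLAG together with a rescuing unc-119(+), in animals mutant for unc-119 by the allele tm4063. C02F12.10 is the sequence name of ceh-63, so both replicates share the tagged extra copy of ceh-63 and the rescued unc-119 mutation. The animals were whole L1 larvae aged 6 hours, starved after bleaching and of pooled sexes, and chromatin was sheared to a labelled size range of 200 to 800 before precipitation with an anti-GFP antibody, although the antibody label itself reads ceh-63. An untagged or otherwise treated group was not analysed here, chromatin came from all tissues together, and nothing in the labels says which cells express the fusion.

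Dosage compensation in worms lowers transcription from both X chromosomes of the XX hermaphrodite to match the single X of the XO male. The number of X chromosomes relative to autosomes is read through xol-1, a switch gene that is active in XO embryos and is kept off in XX embryos by X signal elements. Where XOL-1 is absent, SDC-2, with SDC-1 and SDC-3, brings a condensin-like complex to recruitment elements on X (rex sites), from which the complex spreads. That complex contains the SMC proteins DPY-27 and MIX-1 and the non-SMC subunits DPY-26 and DPY-28, and it works with the histone demethylase DPY-21 and with DPY-30, which is shared with a histone H3 methyltransferase complex.

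Of the 10 genes in these larvae, xol-1 and dpy-28 had a reproducible CEH-63 peak in their windows, that is, a summit within 5 kb of an annotated start or inside the gene. These were 1 of 3 X genes and 1 of 7 autosomal genes, where 5.53% of X and 4.64% of autosomal protein-coding genes had such a peak. The peaks of xol-1 and dpy-28 were among the strongest of the experiment, at ranks 11 and 4 of 30000 by signal in the pooled list. For both peaks, however, some other gene had the nearest start. No reproducible peak lay within 1 kb of a start of any of the 10 genes, where 1.46% of X and 1.69% of autosomal protein-coding genes had one. A count of 0 of 10 is near these shares, and nothing is read from it. The remaining 8 genes had either weak peaks, with a best pooled rank between 2074 and 18769, or, for sdc-3, none in the pooled list.

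The sequence under both reproducible summits is shown first because these are the only strong peaks in the windows, followed by 2 others that serve as points of comparison below. The stretches are from the RefSeq WBcel235 assembly, the same build as the ce11 of the peak files, on the forward strand, centred on the summit and ended where an annotated UTR begins. Capitals mark CGCAGGG or its reverse complement CCCTGCG, letters from the core of the motif known from rex sites.
xol-1 upstream peak (chrX:8036279-8036479, rank 11): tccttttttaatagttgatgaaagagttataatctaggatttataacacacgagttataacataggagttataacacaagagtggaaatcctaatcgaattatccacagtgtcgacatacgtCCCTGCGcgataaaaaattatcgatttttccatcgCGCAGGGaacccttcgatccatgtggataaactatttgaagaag
dpy-28 upstream peak (chrIII:10759183-10759306, rank 4): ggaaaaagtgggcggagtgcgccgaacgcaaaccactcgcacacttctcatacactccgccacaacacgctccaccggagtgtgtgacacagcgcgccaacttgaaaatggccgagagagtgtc
fox-1 upstream peak (chrX:2464114-2464314, rank 349): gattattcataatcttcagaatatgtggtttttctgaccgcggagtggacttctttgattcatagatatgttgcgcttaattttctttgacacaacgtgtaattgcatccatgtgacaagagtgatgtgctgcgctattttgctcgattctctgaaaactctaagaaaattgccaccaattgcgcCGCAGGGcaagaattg
dpy-27 start peak (chrIII:3819680-3819781, rank 13143): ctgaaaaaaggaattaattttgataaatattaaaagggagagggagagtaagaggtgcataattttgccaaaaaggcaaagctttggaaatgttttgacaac
The xol-1 peak holds 2 copies in opposite orientations, beginning 22 and 57 bp after the summit, and the fox-1 peak holds 1 copy, beginning 85 bp after it. The printed stretches at dpy-28 and dpy-27 hold none. The stretch labelled for dpy-28 lies at the start of tasp-1, which is 24 bp from the summit, against 3848 bp for dpy-28.

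The data were 4 lists of peaks deposited by the authors. The list of each replicate and the pooled list, called on both replicates together, held 30000 peaks each, and most of these are weak. Replicates 1 and 2 had 172 and 191 peaks with a q-value of 0.05 or less, and the pooled list had 194. A further list, called reproducible here and selected by the authors with an irreproducible discovery rate (IDR) threshold, held 479 peaks, which were exactly the 479 of highest signal in the pooled list. Signal is the peak caller's value on a scale that is not given in the sources used here, so it serves only to rank peaks within a list. The read depth of the libraries is unknown, and no error can be put on a single peak beyond its ranks in the replicates. The replicates were called against the same control alignment, and its part in their likeness was not tested.

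Around the switch gene xol-1 (WBGene00006962, X 8041313 to 8044409), the pooled list held 6 peaks, of which 1 was reproducible. This peak (X 8036194 to 8036563) ranked 15 in replicate 1 and 8 in replicate 2, with q-values of 0.00571 and 0.0239, and had a q of 0.0261 in the pooled list, the lowest value that the list contains. Its summit was intergenic, 4934 bp upstream of xol-1, just inside the window. The start of the non-coding gene C18A11.13 lay 295 bp away and that of the tRNA gene C18A11.t2 378 bp away. No other protein-coding gene has this peak as the best of its window, so by that count it belongs to xol-1, but non-coding starts stand between them.

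Nearer to xol-1 the peaks were weak. A second peak partly overlaps the strong one and lies 4681 bp upstream of xol-1 (rank 2141, q = 0.775). It had a counterpart within 200 bp in replicate 2 (rank 241) and none in replicate 1. The peak at the start of xol-1 itself had its summit 164 bp downstream of the nearer of 2 annotated starts, in a coding exon (X 8041306 to 8041675). It ranked 10025 in the pooled list, 17857 in replicate 1 and 11382 in replicate 2, with a pooled q of 0.926. The other 3 peaks ranked between 6441 and 29920. The rank of the best peak thus changes from 11 to 10025 between a window of 5 kb and one of 1 kb around the starts.

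**Figure D1:**
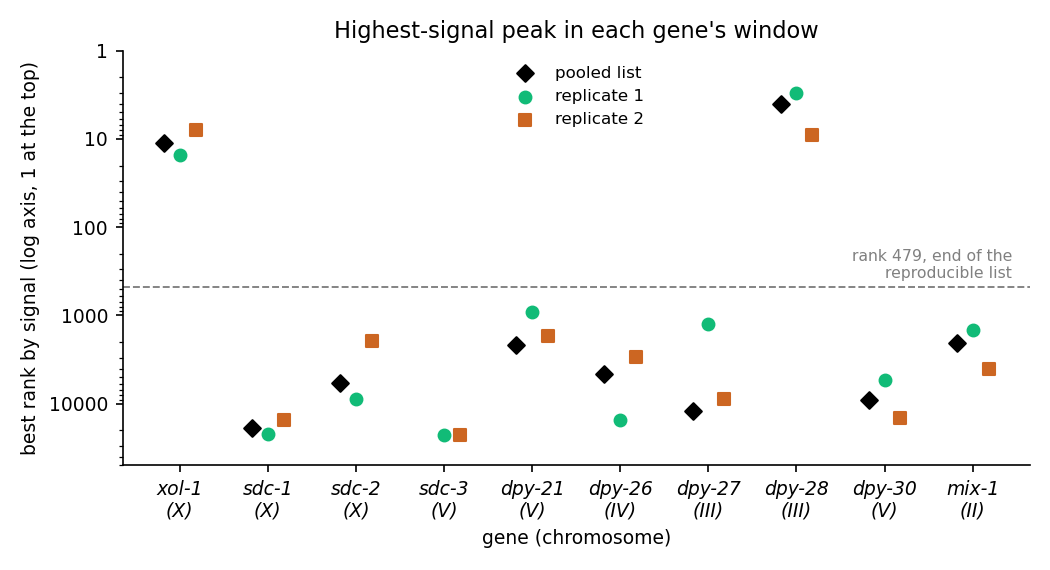
Best rank by signal (log axis, rank 1 at the top) of any peak in the window of each gene, in the pooled list (diamonds), replicate 1 (circles) and replicate 2 (squares); the dashed line is rank 479, the end of the reproducible list. The peaks in the windows of xol-1 and dpy-28 rank between 3 and 15 in all 3 lists, every other value lies below the dashed line, and sdc-3 has no value for the pooled list.

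The sdc genes encode the proteins that bring the complex to X and also repress the male gene her-1, and their windows held weak peaks only. At sdc-2 (WBGene00004746, X 11522707 to 11533450), which encodes the X-targeting factor specific to XX animals, the pooled list had 7 peaks. The best of them, 1180 bp into the gene in an intron, ranked 5867 in the pooled list, 18473 in replicate 1 and 3559 in replicate 2 (pooled q = 0.897). The replicates also differed at the peak 912 bp upstream of sdc-2, which ranked 1972 in replicate 2 and had no counterpart in replicate 1. At sdc-1 (WBGene00004745, X 16275763 to 16282534), a zinc finger gene, the 3 pooled peaks ranked from 18769 to 20065. The best one lay 3459 bp upstream, with ranks of 23735 and 26237 in replicates 1 and 2.

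The zinc finger gene sdc-3 (WBGene00004747, V 15039148 to 15048207) was the only one of the 10 without a pooled peak. Replicate 1 had 2 peaks inside it, at ranks 22676 and 28292, and replicate 2 had 1, at rank 22716. All 3 lay 1149 to 2909 bp downstream of the start. The summits of the nearest pair were 430 bp apart, beyond the 200 bp used for a counterpart. Of autosomal protein-coding genes 94.7% had a pooled peak in the window, and of X genes 93.8%, so the 9 of 10 genes with one are near the background.

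Among the condensin genes, dpy-28 (WBGene00001087, III 10763131 to 10777076) had the strongest peak of all 10 genes. DPY-28 is a HEAT-repeat subunit of the complex and also belongs to condensin I. The peak (III 10759098 to 10759467) ranked 3 in replicate 1 and 9 in replicate 2, with the same q-values as the xol-1 peak in each list. Its summit was intergenic and 3848 bp upstream of dpy-28, but 24 bp upstream of the start of tasp-1, a gene for a threonine aspartase. It is the best peak in the windows of 5 protein-coding genes. Besides dpy-28 and tasp-1 these are K01G5.10 (761 bp upstream of its start), rnf-113 (1643 bp) and the heterochromatin protein gene hpl-2 (3753 bp).

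At dpy-28 itself the signal was weak. Of the 11 pooled peaks in its window, 4 were closer to its start than to any other. The best of these, 1445 bp upstream and in a coding exon of tasp-1, ranked 4828 in the pooled list, 4097 in replicate 1 and 7479 in replicate 2 (q = 0.892). The 5 peaks inside dpy-28 ranked between 18772 and 29709. In likeness of pooled rank, the protein-coding genes next above dpy-28 were wbp-4 and F56G4.6, which share the peak of rank 3. Next below were nspc-16, nspc-17, nspc-18, nspc-19 and nspc-20, which share the peak of rank 6 on X.

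The other condensin genes had no reproducible peak. At dpy-27 (WBGene00001086, III 3813018 to 3819679), which encodes the SMC subunit used only in dosage compensation, a pooled peak sat almost on the start, with its summit 2 bp upstream. That peak was weak, at rank 13143 in the pooled list, 20307 in replicate 1 and 18735 in replicate 2. The best pooled peak of dpy-27, 2189 bp into the gene, ranked 12165 and had a counterpart in replicate 1 only (rank 5633). The nearest reproducible peak to dpy-27 was the top peak of the experiment, at rpl-3, 47887 bp away.

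At dpy-26 (WBGene00001085, IV 12445801 to 12451335), the kleisin gene, the best of 3 pooled peaks lay 2186 bp into the gene, in a coding exon. It ranked 4625 in the pooled list and differed between replicates, with rank 15351 in replicate 1 and 2942 in replicate 2. At mix-1 (WBGene00003367, II 10824246 to 10841424), the SMC gene shared by all condensins, the window held 15 pooled peaks, the most of any of the 10 genes. The best pair lay at the far end of the gene, 16403 and 16155 bp from the start, at ranks 2074 and 2923. The counterparts of the first of these overlapping peaks ranked 3666 in replicate 1 and 4063 in replicate 2, and those of the second ranked 4610 and 5504. They lay 332 and 84 bp from the start of M106.6, which is closer than mix-1's own. Within 1 kb of the start of mix-1 the best peak ranked 20174 and had no counterpart in replicate 2.

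The genes for the histone-modifying partners were similar. At dpy-21 (WBGene00001080, V 17936282 to 17949193), which encodes the H4K20 demethylase, the best of 7 pooled peaks ranked 2157 and lay 2162 bp upstream, 594 bp from the start of Y59A8B.24. It ranked 914 in replicate 1 but 18865 in replicate 2. Inside dpy-21, the peak 4198 bp from the start was more even, with ranks of 6730 and 6624 in replicates 1 and 2 (pooled rank 3480). This was the best pooled rank, over the 10 genes, of any peak whose nearest start belonged to one of them. At dpy-30 (WBGene00001088, V 12191519 to 12192385), 2 pooled peaks lay upstream, at ranks 9198 and 19512, and neither had dpy-30 as the nearest start. A peak inside dpy-30, 278 bp from its start, was listed in replicate 1 alone (rank 8005).

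**Figure D2:**
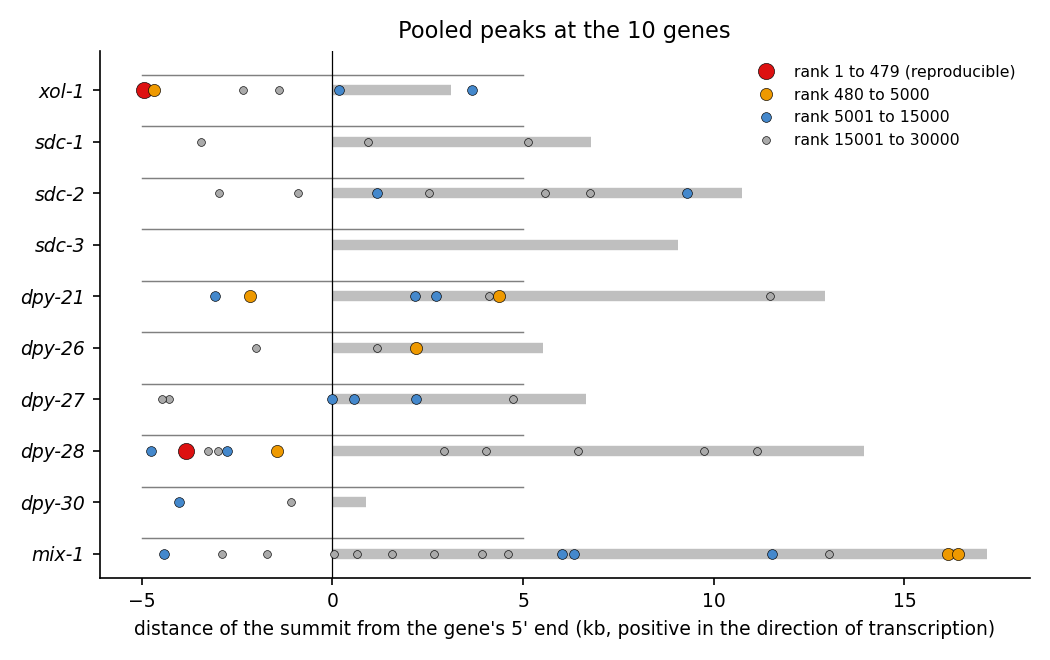
Summits of all 60 pooled peaks by distance from the 5' end of each gene (kb, positive in the direction of transcription); broad grey bars are the genes, thin lines the 5 kb to either side of the 5' end, and dot colour and size give the rank class in the pooled list. Both reproducible peaks lie upstream, 3848 bp from dpy-28 and 4934 bp from xol-1, and no dot within 1 kb of a 5' end is of rank 5000 or better.

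In total, the windows of the 10 genes held 60 pooled peaks, 55 peaks of replicate 1 and 44 of replicate 2. By annotation, 36 of the 60 pooled summits were in coding exons, 13 were intergenic, 8 in introns, 2 in 5′ UTRs and 1 in an exon of a non-coding gene. The windows take in whole genes by construction, and 35 of the 60 summits lay inside the gene. The same split over all pooled peaks was not computed, so nothing is read from it. The median pooled rank was 17396 of 30000. All pooled peaks together have their median at the middle of the list, not far from this value, and nothing particular to the genes is read from it. Apart from the reproducible pair, no pooled peak had a q below 0.764, and the best pooled rank of these others was 2074. Single replicates held stronger ones. Replicate 2 had a peak of rank 241 (q = 0.0894) 4733 bp upstream of xol-1. Replicate 1 had one of rank 407 (q = 0.176) 2775 bp upstream of dpy-28, in a coding exon of tasp-1. For 22 of the 60 pooled peaks the nearest annotated start was that of one of the 10 genes, and the best of those ranked 3480. The matching share was not computed for the windows of other genes, so that count is given as a description only. Overlapping pooled peaks could be matched to the same replicate peak, as for the pair 4278 and 4479 bp upstream of dpy-27, which share a peak of rank 1244 in replicate 1.

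Support from both replicates was limited for the weaker peaks. Of the 60 pooled peaks, 22 (36.7%) had a counterpart within 200 bp in both replicates, against 43% of all pooled peaks. A further 22 had one in replicate 1 only, 15 in replicate 2 only, and 1 had none. Taking only the best pooled peak of each gene, 8 of 10 genes had a counterpart in both replicates, the exceptions being dpy-27 and sdc-3. Among all protein-coding genes that share was 63.8% on X and 64% on autosomes. At a stricter setting, with both counterparts among the 5000 strongest of their replicate, 3 genes were left, which were xol-1 (1 of 3 on X) and dpy-28 and mix-1 (2 of 7 on autosomes). The class shares at that setting were 13.8% and 13%.

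**Figure D3:**
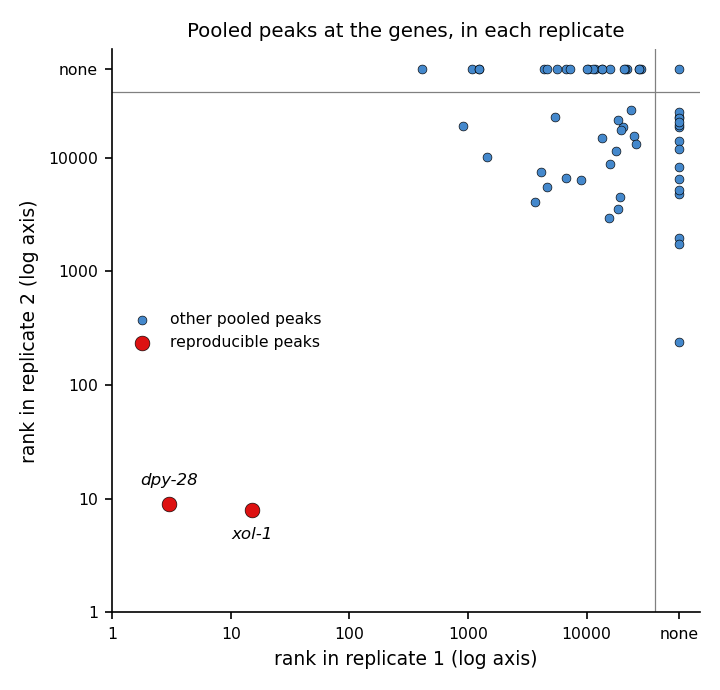
Rank in replicate 1 against rank in replicate 2 (log axes) of the counterparts within 200 bp of each of the 60 pooled peaks at the genes; the strips marked none hold peaks with no counterpart in that replicate. The reproducible peaks near dpy-28 and xol-1 stand apart at ranks of 15 or better in both replicates, and no other peak is within the 479 strongest of both.

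The share of the 10 genes with a reproducible peak was then set beside that of all protein-coding genes of the same class. On X, 1 of 3 genes had one (xol-1), where 5.53% of X protein-coding genes did. On autosomes, 1 of 7 had one (dpy-28), where 4.64% did. With so few genes, a single gene decides each count. Within 1 kb of a start the counts were 0 of 3 and 0 of 7, where the class shares were 1.46% and 1.69%, and nothing is read from 0 in lists this short. Weak peaks were common there: 3 of 3 X genes (xol-1, sdc-1 and sdc-2) and 2 of 7 autosomal genes (mix-1 and dpy-27) had any pooled peak within 1 kb of a start, where 52.4% and 53.5% of the class did. The best of these peaks ranked 10025, at xol-1. By the authors' q-value of 0.05 or less, the same genes, xol-1 and dpy-28, had a peak in the window, where the class shares were 2.56% on X and 2.23% on autosomes.

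Placed among genes of their class by the best peak in the window, xol-1 and dpy-28 stood at the top and the others were spread widely. Both high placements rest on peaks nearer to another start, that of C18A11.13 (295 bp) for xol-1 and of tasp-1 (24 bp) for dpy-28. The dpy-28 peak is the best peak of 5 protein-coding genes. The best peaks with the gene's own start nearest ranked 10025 at xol-1 and 4828 at dpy-28. A pooled peak of rank 11 or better lay in the window of 0.513% of X genes, and one of rank 4 or better in that of 0.0638% of autosomal genes. In replicate 1 the corresponding shares were 0.696% for xol-1 and 0.0522% for dpy-28, and in replicate 2 they were 0.476% and 0.087%. For the other genes with a pooled peak, the share of class genes with a best rank as good ran from 18.3% for mix-1 and 19.0% for dpy-21 through 36.0% for dpy-26, 39.6% for sdc-2, 58.7% for dpy-30 and 69.0% for dpy-27 to 83.2% for sdc-1. The order was not the same in the replicates. dpy-27 stood at 12.2% in replicate 1 and 58.8% in replicate 2, and dpy-26 at 76.7% and 25.8%, and the order of this pair is thus reversed between the replicates. For dpy-27 the values belong to different sites. The best peak lay 4358 bp upstream, in an intron of amx-1, in replicate 1 and 575 bp into dpy-27 in replicate 2.

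**Figure D4:**
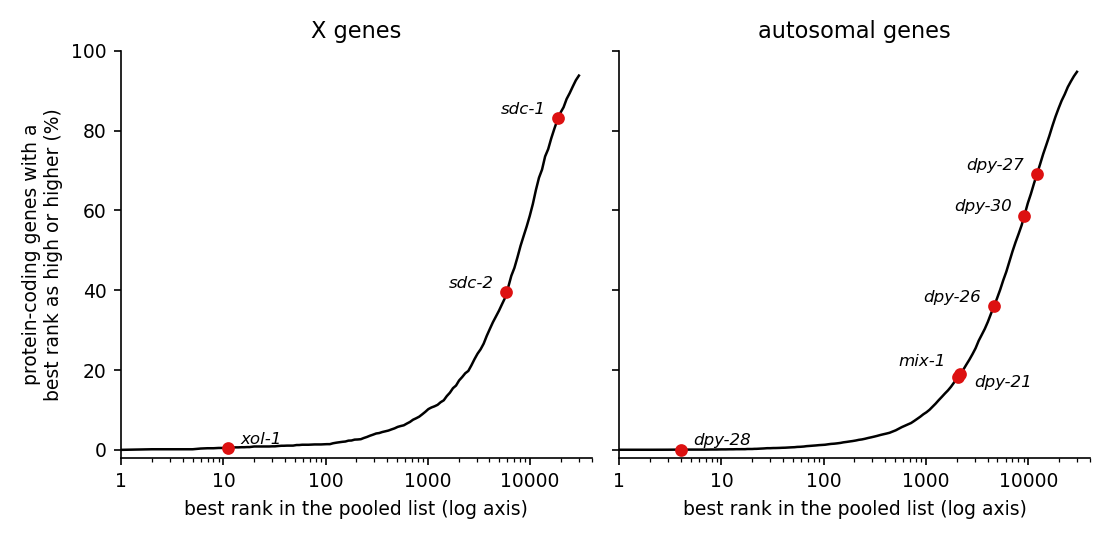
Share of protein-coding genes on X (left, 2731 genes) and autosomes (right, 17242 genes) whose best pooled peak has the given rank or a better one (log axis); red points are the genes of the list that have a pooled peak. Of the points, xol-1 (0.513%) and dpy-28 (0.0638%) lie at the foot of the curves and the others between 18.3% and 83.2%.

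Some of these genes are long, which widens the window and gives it more chances to hold a peak. The windows of mix-1 and dpy-28 spanned 22.2 and 18.9 kb, against a median of 10.001 kb in either class. Counted per length, the densities were 6.76 pooled peaks per 10 kb at mix-1, 5.99 at xol-1, 5.81 at dpy-28 and 5.14 at dpy-27. The class medians were 2.99 on X and 3.00 on autosomes. A density as high was found for 3.54% of autosomal genes at the level of mix-1, 8.80% at that of dpy-28 and 10.2% at that of dpy-27, and for 6.77% of X genes at that of xol-1. The other genes had between 0 (sdc-3) and 4.45 (sdc-2) peaks per 10 kb. Overlapping peaks, as at xol-1 and mix-1, count separately in these densities.

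Other genes of the pathway were examined as a list of 28, of which 27 matched the annotation (sex-2 was not matched). All 27 had a pooled peak in the window, as did 93.8% of X and 94.7% of autosomal protein-coding genes. The median best rank was 2413 for the 3 on X, against 7215 for X genes with a peak, and 2706 for the 24 on autosomes, against 6571.5. Nothing particular to the list is read from these medians. A reproducible peak was present for 3 (11.1%), where the class shares were 5.53% and 4.64%, and none of the 27 had a peak with a q of 0.05 or less. The first was fox-1 on X, an X signal element whose RNA-binding protein lowers xol-1 activity. Its peak (X 2464029 to 2464398) lay 4321 bp upstream with no start nearer, ranked 349 in the pooled list and 205 in replicate 2, but only 4096 in replicate 1 (q = 0.257). The second was cec-4, which encodes a chromodomain protein that anchors methylated chromatin at the nuclear envelope. Its peak (IV 7575434 to 7575803), 99 bp upstream of the start and in a coding exon of F32E10.5, ranked 440, with ranks of 633 and 971 in replicates 1 and 2 (q = 0.340). The third was hcp-6, a subunit gene of condensin II on chromosome I, with a peak 128 bp upstream that ranked 412 in the pooled list, 342 in replicate 1 and 1120 in replicate 2 (q = 0.310).

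The remaining groups of that list had no reproducible peak. Besides fox-1, the X signal element genes ceh-39 and sex-1 had best ranks of 2413 and 6442. The best peak of ceh-39 lay 3029 bp upstream of it and 382 bp from the start of T26C11.t1. The 7 sex determination genes ranged from rank 864 (fem-2, 611 bp into the gene) to 12418 (her-1, the male-specific gene that the SDC proteins repress), with a median of 1210 beside the autosomal 6571.5. The best peaks of tra-2, tra-3 and fem-3 lay nearer to the start of another gene, and nothing is read from this median. The 5 genes of the H3K4 methyltransferase complex that contains DPY-30 ranged from rank 1232 (rbbp-5) to 10846 (set-2). The rbbp-5 peak lay 27 bp from the start of tpp-2, against 206 bp for rbbp-5. That of set-2 lay 538 bp from the start of C26E6.12, against 1511 bp for set-2. Among 5 condensin subunit genes, hcp-6 (rank 412) and smc-4 (rank 2833, 9 bp into the gene) stood before kle-2, capg-1 and capg-2, at ranks from 14033 to 27521. Of these, capg-1 encodes the remaining subunit of the dosage compensation condensin, and its best peak ranked 20277. The best peaks of kle-2 and capg-1 lay nearer to the start of another gene.

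The letters CGCAGGG, found in the peak upstream of xol-1, were counted on both strands within 150 bp of summits. They are part of a longer motif by which rex sites are known, and their presence is not a measure of binding by the dosage compensation complex. Of the 60 pooled peaks at the 10 genes, the xol-1 peak alone held them (1.67%), against 0.647% of all pooled peaks. That peak belongs to a set of strong X peaks in which they were frequent. Of the 11 X peaks among the 20 strongest of the experiment, 8 (72.7%) held the letters, as did 7 of the other 92 reproducible peaks on X (7.61%). They were present in 0.745% of the other 5098 pooled peaks on X, in 1.33% of the 376 reproducible peaks on autosomes, and in 0.557% of the other pooled peaks on autosomes. At positions 1 kb to either side of the reproducible X summits the share was 0.971% (2 of 206).

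Windows with 2 or more copies, as at xol-1, were rarer still. In the pooled list of 30000 peaks there were 5, and all 5 were X peaks of rank 7 to 15. Among the 206 windows placed 1 kb to either side of reproducible X summits, 1 also held 2 or more copies. Apart from the xol-1 peak (rank 11) the 5 peaks were at X 11094004 to 11094373 (rank 7), X 806482 to 806851 (rank 9), X 6296407 to 6296776 (rank 13, in an intron of mom-1) and X 5429329 to 5429698 (rank 15, in a coding exon of pks-1). Each ranked within the 17 strongest peaks of both replicates. The reproducible peak upstream of fox-1, on X at rank 349, held 1 copy. The grouping by rank 20 was chosen with earlier results of these data known, and no test was made of these shares.

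**Figure D5:**
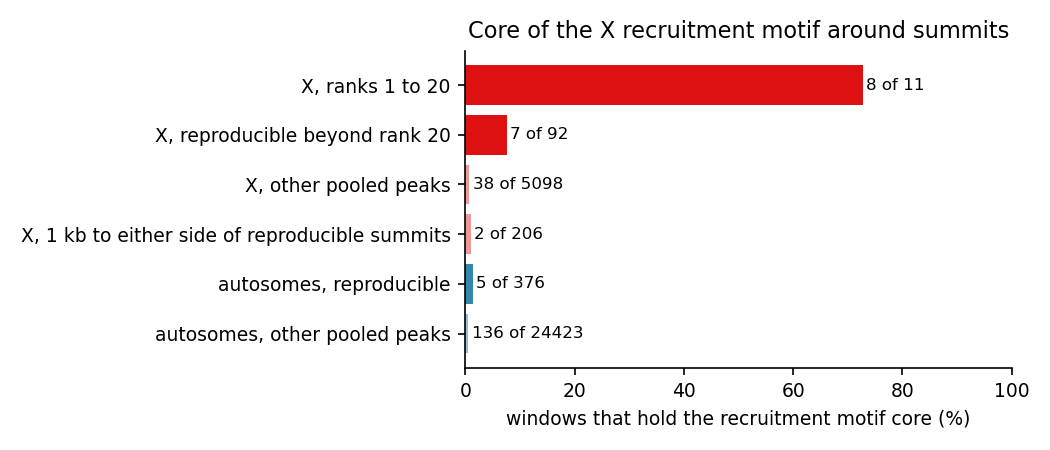
Share of summit-centred windows of 301 bp that hold the 7 letters of the recruitment motif core on either strand, for X (red, paler for weaker peaks and flanking positions) and autosomes (blue), with the number of windows beside each bar. The 11 X peaks among the 20 strongest, to which the xol-1 peak belongs, stand at 72.7%, the next set at 7.61% and the others at 1.33% or less.

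The homeodomain core TAATTA, which reads the same on both strands and overlaps no copy of CGCAGGG, was counted in the same windows. It was present in neither of the reproducible peaks at xol-1 and dpy-28. Of the 60 pooled peaks at the genes, 8 held it (13.3%), at dpy-21, dpy-27, dpy-28, dpy-30, mix-1 and, in 3 peaks, sdc-2. All reproducible peaks held it in 14.4% of windows and all pooled peaks in 11.4%. Of the 11 X peaks among the 20 strongest, 3 held it (27.3%). That these letters are missing from a window says only that this string is not in it.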

How the data were processed

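The deposited files were 4 peak lists on the ce11 assembly, in narrowPeak columns: 1 for each replicate, 1 for both replicates together (pooled) and 1 reproducible list. Per the README text that the authors deposited, each was called with the control alignment, and the reproducible list was derived from the other 3. The sources used here name no aligner, peak caller, read depth or IDR threshold. The authors deposited a signal value for each peak (used here for ranks within a list, 1 being the highest) and a −log10 q-value, from which q was computed. Coordinates are 1-based.

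Genes and starts came from Ensembl release 115 (WBcel235, which matched ce11 in that all peaks and genes lay within the RefSeq chromosome lengths). Peaks were assigned to a gene when the summit lay within 5 kb of a start or inside the gene. A counterpart was the best-ranked replicate peak within 200 bp of a pooled summit. Nearest starts included every gene type except pseudogenes. tRNA names were matched through RefSeq. Random gene draws were not made: the share over all protein-coding genes of the class is given, with no test. The 10 genes, the pathway list and the motifs were chosen with earlier results of these data known. Named genes were the 10, pathway genes with a reproducible peak or otherwise the strongest, the genes whose starts were nearer to a named summit, and the rank neighbours of dpy-28. Pathway genes outside this rule were named as examples after their values were seen. Python 3.11.15, pandas 2.3.3, NumPy 2.4.6, SciPy 1.17.1, Biopython 1.88 and matplotlib 3.10.9 were used. The assignment was tested on simulated data. Alternatives changed the window, the list, the counterpart distance and q.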

Additional observations from a re-analysis of the deposited data

How the results depend on the processing

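The count of 2 genes with a reproducible peak fell to 0 with 2 kb around starts plus the gene body, to 0 with 1 kb around starts, and to 0 when a peak was counted only for the nearest start, a setting chosen after seeing the data. By construction, these settings drop peaks that lie farther away or nearer to another gene. The class shares fell as well, from 5.53% on X and 4.64% on autosomes to 2.82% and 2.75%, to 1.46% and 1.69%, and to 1.94% and 1.46%, in the same order of settings, so 0 of 10 genes is near the background in each. It was 2 under each of the other alternatives tried. These were starts only, outermost 5′ ends, whole intervals, the 239 strongest reproducible peaks, and each replicate alone (2 to 2). Class shares for the 239 strongest were 2.97% on X and 2.67% on autosomes. They were 4.98% and 4.74% without replicate 1, and 5.27% and 4.98% without replicate 2. The last 2 settings used the list of 1 replicate. Both genes' peaks rank between 3 and 15 there, so the count could hardly change, and nothing is read from it. The 9 genes with a pooled peak became 5 with 1 kb around starts, 5 among the 5000 strongest pooled peaks (class shares 34.9% and 38.3%), and 10 to 10 with either replicate's list alone. The 8 genes with counterparts in both replicates became 3 among the 5000 strongest of each. The 2 genes with a q of 0.05 or less became 0 at 0.01, below the lowest pooled q (0.0261), and were 2 to 2 with either replicate alone. No paired analysis was possible because the series has 1 group. Unknown depth limits what weak ranks can show, and ranks beyond the reproducible list often differed between the replicates.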
